A study of Hydra vulgaris with 22 samples.

Results

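Gastrodermal epithelial stem cells of Hydra vulgaris were compared with interstitial cells of a medium fluorescence gate, using 6 of the 22 libraries of the series. The gESC_3d group (replicates A, B and C) came from polyps with eGFP driven by an actin promoter, sorted for high eGFP in gastrodermal epithelial stem cells after 3 days of starvation. The ISC_medium group (A, B and C) came from polyps with eGFP driven by the cnnos1 promoter, sorted for medium eGFP in interstitial stem cells. ISC_medium A had 5 days of starvation, and ISC_medium B and C had 3. Libraries used beside them were gESC_10d (n = 3, actin line, high gate, 10 days), ISC_high (n = 4, cnnos1 line, high gate, 2 to 5 days), eESC_3d and eESC_10d (n = 3 and n = 4, epidermal epithelial stem cells, actin promoter, high gate, 3 and 10 days) and 2 body columns sequenced without sorting after 10 days, of which 1 carried the actin and 1 the cnnos1 transgene. The actin column is labelled with eGFP in epidermal cells, so no unsorted column of a line labelled with actin-driven eGFP in gastrodermal cells was used. The cnnos1 column is labelled with eGFP in gastrodermal cells, which differs from the interstitial label of the sorted cnnos1 libraries, and it is called here by its promoter. All polyps were of strain AEP and untreated, and the tissue was the central body column without its apical and basal ends. The transgenic line, the cell population and the gate differ together between gESC_3d and ISC_medium, so their parts in a difference cannot be told apart from these 6 libraries. Nothing in the labels says that replicates came from separate cultures, and p-values therefore measure the spread between libraries, which may be technical.

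In Hydra, the gastrodermis is the inner cell layer, whose epithelial stem cells line the gastric cavity, take up food and divide along the body column while they remain working epithelial cells. Interstitial stem cells lie between epithelial cells and give rise to nerve cells, stinging cells (nematocytes), gland cells and germ cells. Nanos genes such as cnnos1 belong to a family of translational repressors known from germline and multipotent stem cells. A cnnos1 reporter can mark stem cells strongly and their recent progeny more weakly, because eGFP outlives the promoter's activity.

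Reads had been counted on transcript contigs, and contigs with the same identifier up to the isoform number were summed into stems. The 61501 contigs formed 44306 stems, of which 8844 held several contigs. No contig (0 of 61501) and no stem (0 of 44306) matched the 28925 genes of the reference table. The files therefore do not pair stems with gene names, markers of the sorted cells or of other cell types could not be checked, and only 2 stems of each direction are named. Levels are given as CPM, read counts scaled to a common library total with TMM factors, with no correction for transcript length.

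Library totals were 19422544 to 25455639 counts in gESC_3d and 18559123 to 20327106 in ISC_medium. Between 25265 and 25867 stems had a count in a gESC_3d library, and between 24319 and 27179 in an ISC_medium library. Spearman correlations across stems, which are not independent replicates, were 0.965 to 0.986 within gESC_3d and 0.968 to 0.979 within ISC_medium, against 0.702 to 0.761 between the groups (9 pairs). On a principal component analysis of the 6 libraries, the first component carried 92.6% of the variance and separated the groups.

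The deepest library, gESC_3d C, stood apart from its group. On the log2(CPM + 1) scale, 1189 stems were at least 2-fold off the mean of the remaining gESC_3d libraries, against 214 for gESC_3d A and 173 for gESC_3d B. Its correlations were 0.966 and 0.965 with gESC_3d A and B, and 0.968 to 0.983 with the 3 gESC_10d libraries. With those 3 libraries, gESC_3d A had correlations of 0.966 to 0.976 and gESC_3d B of 0.966 to 0.977. Likeness to gESC_10d was therefore not particular to gESC_3d C. In ISC_medium, the library at 5 days of starvation, A, had 574 such stems, against 255 for B and 218 for C. The main counts and the named stems are therefore also given without gESC_3d C, which leaves libraries of 18559123 to 20327106 counts.

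Most stems differed between gastrodermal and medium-gate interstitial cells. Of 18288 stems tested, 11040 (60.4%) were called at an adjusted p under 0.05 (edgeR quasi-likelihood F test, Benjamini-Hochberg over all stems). In gESC_3d, 6241 stems (34.1%) were higher and 4799 (26.2%) lower than in ISC_medium. At least 2-fold higher were 5428 stems (29.7%) and at least 2-fold lower 3428 (18.7%). In 10352 of the 11040 called stems, every library of one group lay above every library of the other, as in 61.4% of all stems tested (11226). Without gESC_3d C, 10254 of 19419 stems (52.8%) were called, 6041 higher (31.1%) and 4213 lower (21.7%). Of 18283 stems tested both ways, 9666 were called with the same sign, 1372 lost their call, 343 gained one and 0 were called with opposite signs. Without ISC_medium A, which leaves only libraries at 3 days of starvation, 10992 of 19567 stems (56.2%) were called, 6411 higher (32.8%) and 4581 lower (23.4%).

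Large differences were mostly higher levels in gastrodermal cells. Fold changes of group means were taken for this with a floor of 3 counts per library wherever all libraries of a group held at most 3 counts of a stem, which makes those folds lower bounds. ISC_medium was at that floor for 2077 of the stems called higher, and gESC_3d was at it for 738 of the stems called lower. For 69 called stems both groups were at the floor, and the ratio of the floors, which is no bound, was used. The floor lay at 0.121 to 0.196 CPM in gESC_3d and at 0.173 to 0.181 CPM in ISC_medium. On this scale 5064 stems were at least 2-fold higher and 3286 lower. At least 4-fold, 3282 stems were higher and 1519 lower. At least 16-fold, 1427 were higher and 407 lower, and at least 64-fold, 689 were higher and 60 lower. Without gESC_3d C, 674 stems were at least 64-fold higher and 41 lower. The median log2 fold change was 2.12 over stems called higher and -1.43 over stems called lower. Stems at the floor in 1 group were taken at their bound, and those 69 at the ratio of the floors. The median over all stems tested was 0.045 in the fit.

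**Figure D1:**
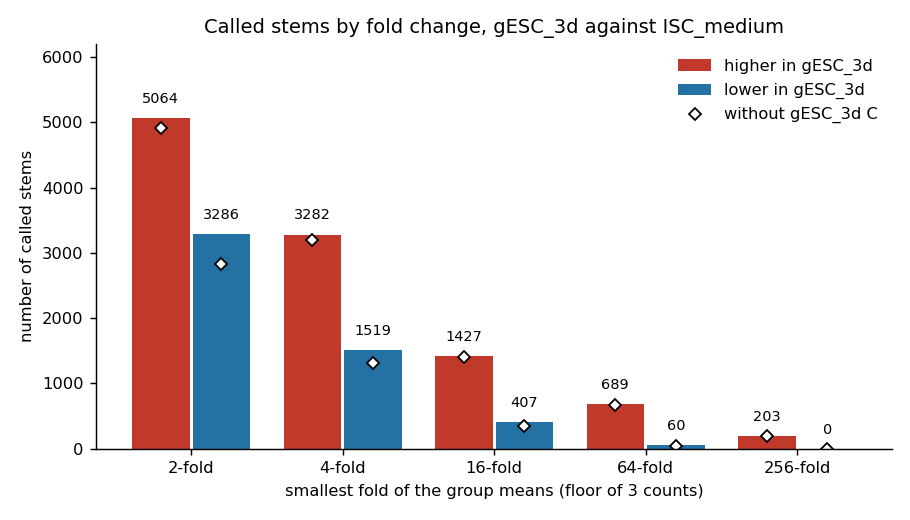
Number of stems called in gESC_3d against ISC_medium (vertical axis) whose group means differed by at least the fold on the horizontal axis, with a floor of 3 counts. Red bars are stems higher in gESC_3d, blue bars stems lower in gESC_3d, and diamonds the same counts without gESC_3d C. At 64-fold the bars stand at 689 and 60.

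Most stems that were at the floor in one group and well above it in the other were gastrodermal. With at least 10 CPM in gESC_3d, 280 stems were at the floor in ISC_medium, of which 34 had no count there. With at least 10 CPM in ISC_medium, 6 stems were at the floor in gESC_3d, of which 2 had no count. Without gESC_3d C these were 257 and 8 stems.

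The balance of directions differed with the level of a stem. Among the 6468 stems with a mean under 1 CPM over the 6 libraries, 25.9% were called higher and 16.7% lower in gESC_3d (1678 and 1078 stems). At 1 to 10 CPM, 40% were called higher and 24.6% lower. At 10 to 100 CPM the shares were 39.7% higher and 33.7% lower, at 100 to 1000 CPM 32% higher and 45.2% lower, and at 1000 CPM or more 18.5% higher and 49.7% lower (35 and 94 of 189 stems). Among calls of at least 2-fold, 340 were higher and 320 lower at 100 to 1000 CPM, and 29 higher and 28 lower at 1000 CPM or more. This 2-fold balance depended on single libraries. At 100 to 1000 CPM it was 284 higher and 376 lower without gESC_3d B, and 387 and 270 without ISC_medium A. At 1000 CPM or more it was 19 and 38, and 39 and 16. Without gESC_3d C the counts in these classes were 308 and 275, and 24 and 28. For calls of any size, more stems were lower than higher at 100 CPM and above also with median-of-ratios factors, with library size as the only scaling and with the authors' factors. At 1000 CPM or more, leaving out ISC_medium A gave 48 higher and 52 lower of 192. Leaving out each of the other 5 libraries gave 24 to 44 higher and 73 to 113 lower, with 31 higher and 73 lower of 197 without gESC_3d C.

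**Figure D2:**
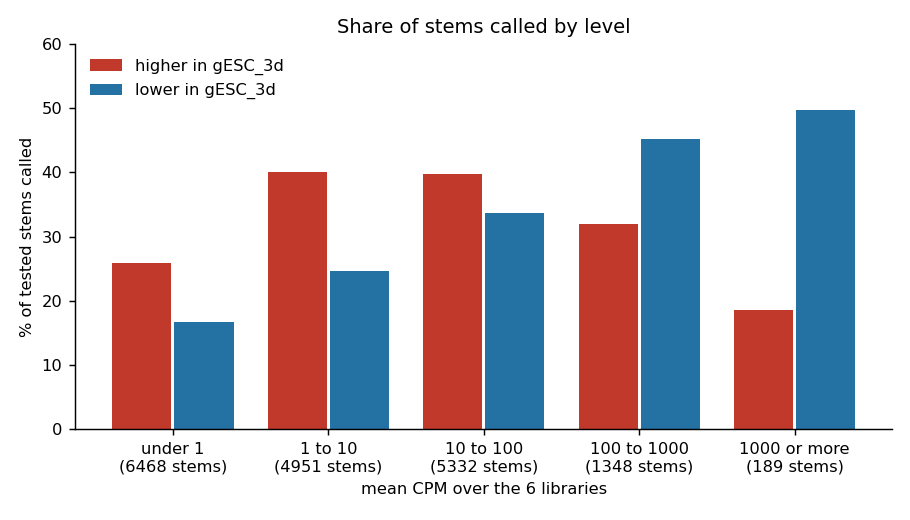
Share of tested stems called higher (red) or lower (blue) in gESC_3d against ISC_medium, by mean CPM over the 6 libraries, with the number of stems tested in each class. The share called lower was the greater one from 100 CPM upwards, at 45.2% and 49.7%, for calls of any size.

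The most abundant stems of both populations were partly shared. Of the 100 stems with the highest mean in gESC_3d and the 100 with the highest mean in ISC_medium, 64 were common to both lists. Of those 64, 39 (60.9%) were called, a share near the 60.4% of all stems tested. Among the 36 found only in the gastrodermal list, 31 were called higher in gESC_3d, and among the 36 found only in the interstitial list, 35 were called lower. The lists were chosen on the same group means, so these counts are a description, beside 34.1% called higher and 26.2% called lower of all stems. The 100 most abundant stems of a library took 40.2 to 41.7% of its counts in gESC_3d and 42.5 to 45.6% in ISC_medium.

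Stems were named among called stems of at least 10 CPM on average whose groups did not overlap, and each largest value below holds among those. Stem c25578_g1 had the largest difference in level in favour of gastrodermal cells. It was abundant in both populations, ranking 2 by mean level in gESC_3d and 7 in ISC_medium. Its levels were 31116, 36430 and 17709.5 CPM in gESC_3d A, B and C, against 8777, 9483 and 9533 CPM in ISC_medium A, B and C. The groups did not overlap, and gESC_3d C was the lowest gastrodermal library. The group means were 28418.5 ± 9647 CPM in gESC_3d and 9264 ± 423 CPM in ISC_medium (SD, n = 3 each), a log2 fold change of 1.62 (SE 0.21, edgeR adjusted p 2.4e-06). Without gESC_3d C it was 1.89 (SE 0.16, edgeR adjusted p 1.3e-08). Both contigs of this stem were called higher. The level was not particular to the gastrodermis: eESC_3d had 28887 ± 5539 CPM (SD, n = 3). Its component number, c25578, is shared by 2 stems, and how reads were divided between them is uncertain.

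Stem c17071_g1 had the largest fitted fold change among stems higher in gastrodermal cells. It had 119.7, 122.7 and 109.7 CPM in gESC_3d A, B and C and no counts in ISC_medium A, B and C. The gastrodermal libraries lay close together, at 117 ± 6.80 CPM (SD, n = 3), at least 658-fold above the floor of ISC_medium (edgeR adjusted p 4.3e-08), and at least 680-fold without gESC_3d C. In eESC_3d it had 0.812 ± 0.179 CPM (SD, n = 3). It also differed between the unsorted body columns, with 543 counts in that of the actin line and 0 in that of the cnnos1 line. For this stem, the cell population and the transgenic line therefore cannot be told apart. Between these 2 columns, which are single libraries, such stems were few. The actin column is labelled with epidermal eGFP, so the line of gESC_3d was not itself screened. At least 30 counts in the actin column and at most 3 in the cnnos1 column were found for 29 of the 5428 stems at least 2-fold higher in gESC_3d (0.534%), and the reverse for 24 of them (0.442%). Over all stems tested the shares were 0.246% and 0.213%. Among the 280 stems at the floor in ISC_medium, 10 were found in the actin column only (3.57%) and 3 in the cnnos1 column only (1.07%).

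Stem c25696_g2 had the largest difference in level in favour of the medium gate. It had 284, 190.0 and 41.9 CPM in gESC_3d A, B and C, against 7893, 7840 and 8501 CPM in ISC_medium A, B and C. The interstitial libraries lay within a narrow band and far above the gastrodermal ones, of which gESC_3d C was the lowest. The means were 172 ± 122 CPM in gESC_3d and 8078 ± 367 CPM in ISC_medium (SD, n = 3 each), a log2 fold change of -5.55 (SE 0.93, edgeR adjusted p 4.3e-05). Without gESC_3d C it was -5.07 (SE 0.99, edgeR adjusted p 0.00031). Ranking 11 by mean level in ISC_medium, this stem had only 10.7, 18.0, 194.7 and 55.8 CPM in ISC_high A, B, C and D. Both body columns contained it, at 48587 counts in the actin line and 52094 in the cnnos1 line. Its component number is shared by 3 stems.

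Stem c19262_g1 had the largest fitted fold change among stems lower in gastrodermal cells. It had no counts in gESC_3d A, B and C, against 47.6, 21.8 and 30.6 CPM in ISC_medium A, B and C. The mean of ISC_medium was 33.4 ± 13.1 CPM (SD, n = 3), so gESC_3d was at least 201-fold lower (edgeR adjusted p 7.3e-10), and at least 177-fold lower without gESC_3d C. It was also without counts in the 3 gESC_10d libraries. The other populations contained it, at 20.7 ± 7.17 CPM in ISC_high (SD, n = 4) and 21.9 ± 4.67 CPM in eESC_3d (SD, n = 3). The body columns had 1077 counts in the actin line and 859 in the cnnos1 line. Neither column was of a line labelled with actin-driven eGFP in gastrodermal cells, so a part of the line in c19262_g1 was not tested.

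**Figure D3:**
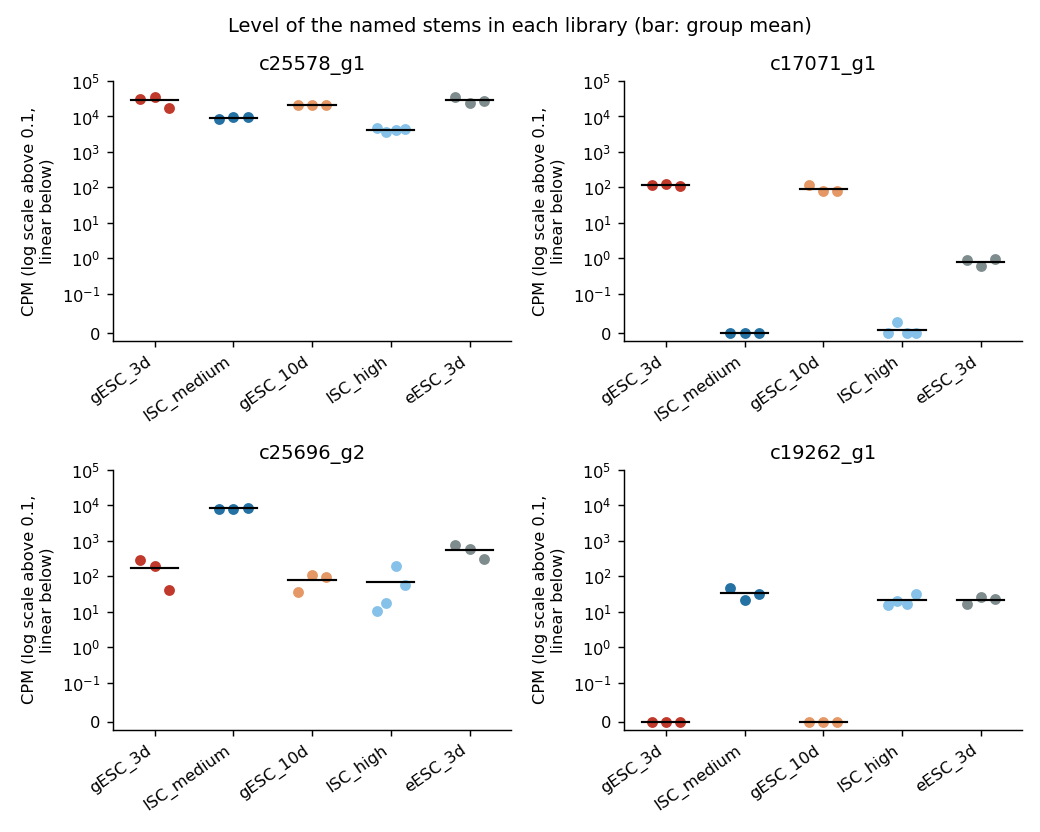
Level of the 4 named stems in each library of 5 groups, in CPM on an axis that is logarithmic above 0.1 and linear below. Points are libraries and bars group means. Stem c25578_g1 was high in both epithelial populations, c17071_g1 in gastrodermal libraries, c25696_g2 in ISC_medium, and c19262_g1 was at 0 in both gastrodermal groups.

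The 5428 stems at least 2-fold higher in gESC_3d made up 35.7, 36.6 and 36.5% of the counts of gESC_3d A, B and C, against 4.37, 4.45 and 4.51% in ISC_medium A, B and C. The 3428 stems at least 2-fold lower made up 6.85, 6.89 and 6.18% in gESC_3d, against 25.7, 26.6 and 26.9% in ISC_medium. These stems were chosen on the same libraries, so the shares are a description. The 10 most abundant of the higher stems took 7.48 to 9.39% of a gESC_3d library, and the 10 most abundant of the lower stems took 4.78 to 5.85% of an ISC_medium library.

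Calls made without a library were then read in that library. Without gESC_3d C, 5356 stems (27.6%) were at least 2-fold higher, and 96.3% of them lay above all 3 ISC_medium libraries in gESC_3d C, against 41.4% of all stems tested. Of the 3010 (15.5%) at least 2-fold lower, 96.2% lay below all 3 ISC_medium libraries in gESC_3d C, against 37.7% of all stems. The higher stems took 36.4% of the counts of gESC_3d C and the lower ones 5.08%. Without ISC_medium A, 91.7% of the 3407 stems (17.4%) at least 2-fold lower in gESC_3d lay above all gESC_3d libraries in ISC_medium A, against 35.7% of all stems. For the other 4 libraries the corresponding shares of the stems chosen as high in their own group were 95.5 to 98.3%. Each library was read against the same libraries of the opposite group that had served in the calls, so these shares are a description.

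In groups that were not contrasted, whose libraries entered the fit through scaling, filter and spread, the higher stems stayed close to their gastrodermal level in gESC_10d and were spread in epidermal cells. They took 35.6 ± 2.66% of counts in gESC_10d (SD, n = 3), 23 ± 0.802% in eESC_3d (n = 3) and 5.56 ± 0.362% in ISC_high (n = 4). The mean of gESC_10d was within 2-fold of that of gESC_3d, or above it, for 95.4% of these stems. The mean of eESC_3d was so for 47.1%, and lay under a 10th of the gESC_3d mean for 31.7%. The stems were chosen on the gESC_3d level, so these shares are a description.

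Part of the lower stems were far below their ISC_medium level in the high gate. The lower stems took 6.51 ± 0.534% of counts in gESC_10d (n = 3), 18.2 ± 0.678% in ISC_high (n = 4) and 10.3 ± 0.491% in eESC_3d (n = 3), against 26.4 ± 0.624% in ISC_medium, on which they were chosen (SD, n = 3). The mean of ISC_high was within 2-fold of that of ISC_medium, or above it, for 66.1% of them and under a 10th of it for 15.6%. In eESC_3d the corresponding shares were 28.8% and 15.6%. The unsorted columns, single libraries, had 25.8% of counts in the higher stems and 13.1% in the lower ones in the actin line, and 24.6% and 13.5% in the cnnos1 line. In unsorted tissue, fewer cells of a type and less RNA per cell cannot be told apart.

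**Figure D4:**
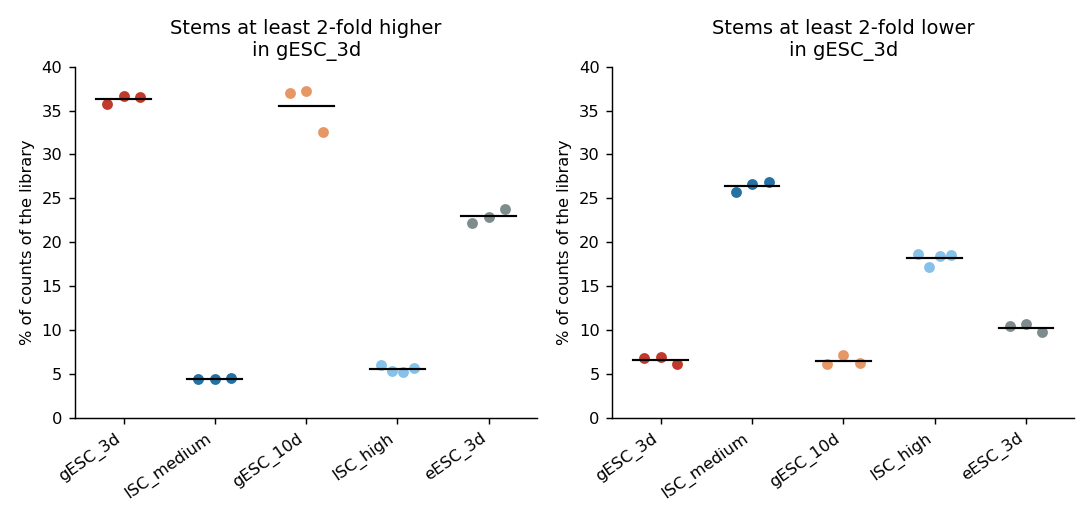
Share of a library's counts, in percent, in stems at least 2-fold higher (left) or lower (right) in gESC_3d than in ISC_medium. Points are libraries and bars group means. The stems were chosen on gESC_3d and ISC_medium. Among the other groups, gESC_10d averaged 35.6% in the left panel and ISC_high 18.2% in the right one.

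Gastrodermal cells were also compared with interstitial cells of the high gate, gESC_10d against ISC_high, in libraries that share none with the first comparison. Starvation and gate differ from those of gESC_3d and ISC_medium. There, 11737 of 18288 stems (64.2%) were called, 6585 higher (36%) and 5152 lower (28.2%) in gESC_10d. At least 2-fold higher were 5801 (31.7%) and at least 2-fold lower 3544 (19.4%). Of the 6241 stems higher in gESC_3d, 94.2% were higher in gESC_10d too, against 51.7% of all stems. Of the same 6241 stems, 84.6% were called higher, against 36% of all stems. Of the 4799 lower in gESC_3d, 87% were lower in gESC_10d and 69.3% were called lower, against 28.2% of all stems. Called with the opposite sign were 102 of the 6241 higher and 245 of the 4799 lower stems. Over all stems, 28.2% were called lower and 36% higher in gESC_10d. Among those at least 2-fold different, the shares called with the same sign were 90.1% for the higher and 65% for the lower stems, at any fold in gESC_10d against ISC_high.

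A test of the difference between both comparisons, an interaction contrast in the same edgeR fit, called 2822 of 18288 stems (15.4%). The difference was positive for 1519 (8.31%), 993 of them at least 2-fold (5.43%), and negative for 1303 (7.12%), 1173 of them at least 2-fold (6.41%). This balance turned with the scaling: 53.8% of calls were positive with TMM, 43.4% with median-of-ratios factors (1093 positive, 1424 negative), 42.4% with the authors' factors (1117 and 1515) and 65.9% with library size alone (2196 and 1135). The median log2 difference over all stems was 0.042 with TMM, -0.038 with median-of-ratios factors, -0.070 with the authors' factors and 0.21 with library size alone. It called 865 of the 6241 stems higher in gESC_3d (13.9%) and 1194 of the 4799 lower ones (24.9%). These shares are a description, since both contrasts use gESC_3d and ISC_medium. Stem c25696_g2 was among them, with a log2 fold change of -5.55 in gESC_3d against ISC_medium and 0.17 (SE 0.72, edgeR adjusted p 0.86) in gESC_10d against ISC_high. Its difference was -5.72 (SE 1.11, edgeR adjusted p 0.0013). For c25578_g1 the second comparison gave 2.36 (SE 0.20, edgeR adjusted p 5.1e-09), and the difference of -0.75 (SE 0.28) was not called (edgeR adjusted p 0.085). The contrast joins 2 parts, gESC_3d against gESC_10d, which differ in starvation, and ISC_medium against ISC_high, which differ in gate. Neither part was tested alone here, so their shares in the 2822 calls are not given. Library depth also differs within each part, and there it cannot be told apart from starvation or gate. For c25696_g2 the interstitial libraries at 3 days of starvation had 7840 and 8501 CPM in ISC_medium B and C, against 18.0 and 194.7 CPM in ISC_high B and C.

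**Figure D5:**
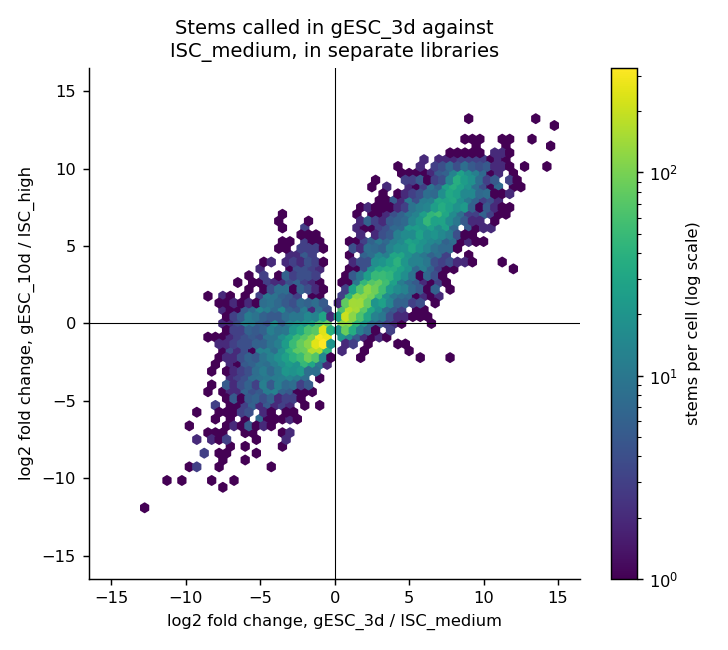
Log2 fold change of the 11040 stems called in gESC_3d against ISC_medium (horizontal axis) and of the same stems in gESC_10d against ISC_high (vertical axis), which share no libraries. Colour gives the number of stems per hexagon on a log scale, and folds of stems at the floor are fitted values that depend on the prior count. Of the stems higher on the horizontal axis, 94.2% lie above 0 on the vertical one, and of the lower ones, 87% lie below 0. Over all stems tested, not all of which are shown, 51.7% were higher in gESC_10d than in ISC_high.

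Contigs of one stem sometimes differed in opposite directions. Fitted as contigs, 13504 of 28522 (47.3%) were called, 7933 higher (27.8%) and 5571 lower (19.5%). At least 2-fold higher were 7333 (25.7%) and lower 4400 (15.4%). Of 5929 stems with at least 2 contigs tested, 396 (6.68%) had one contig called higher and another called lower in gESC_3d, and in 300 of these both were at least 2-fold. Summed, 147 of the 396 stems were called higher, 133 lower and 116 were not called. How reads were divided among contigs of similar sequence is uncertain. Calls were about as frequent in stems of a single contig (59.4% of 10741) as in stems of several (61.8% of 7547).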

How the data were processed

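Polyadenylated RNA of sorted or whole central body columns was sequenced from directional Illumina TruSeq libraries, per the labels' protocols. The authors deposited whole-number counts for 61501 contigs in 22 libraries. The submitters' processing notes name cutadapt 1.11, Salmon 0.7.2 and DESeq2 without roles, and whole counts may be rounded estimates. The transcriptome and its build are not given in the sources used here. A second deposited table holds signal: the authors' counts of 26024 contigs times 1 factor per library (largest relative deviation 6.3e-11). It was used only for those factors. Per-sample columns of other series: 0.

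Contigs were summed per stem. The fit (edgeR 4.0.16, limma 3.58.1, R 4.3.3) held the 20 sorted libraries with 1 mean per group, TMM scaling, filterByExpr (minimum count 10, minimum total 15) and library totals kept. It was checked on simulated data with few changed stems, balanced in direction and above the floor. That check does not cover the balance of directions or folds at the floor. The common biological coefficient of variation was 0.294. An adjusted p under 0.05 was a call. SE is the log2 fold change divided by the square root of F. Floors hold for counting error alone: no molecular barcodes are described, so several reads may come from 1 molecule.

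Members, lists and tests were chosen with earlier results of these data known. Named were, per direction, among called stems of at least 10 CPM whose groups did not overlap, the one with the largest difference of means and the one with the largest absolute log2 fold change. Alternatives were other filters, scalings, DESeq2 1.42.0, fewer libraries, contigs, thinning, a replicate block and, chosen after seeing the data, leaving out stems of one body column only and, for the classes by level, each of the 6 libraries. Markers were named but, without gene names, not tested.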

Additional observations from a re-analysis of the deposited data

Results flagged for a closer look

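The gastrodermal minus interstitial difference differed between gESC_3d against ISC_medium and gESC_10d against ISC_high for 2822 stems, by an interaction contrast of the edgeR fit. Of these, 498 were called lower in both comparisons and 467 higher in both. Called lower in the first only were 451, and higher in the first only 296. Called lower in the second only were 496, and higher in the second only 260. A further 245 were lower in the first and higher in the second, 102 were higher in the first and lower in the second, and 7 were called in neither. Stem c25696_g2 was called by the same contrast, with a difference of -5.72 on the log2 scale.

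Dixon's gap was tested in 16 sets of values, each over the 4 libraries of a group, of which 3 had a library beyond the critical value. Chance gives about 1 in 20 for a single set, but these sets are not independent, so no excess is read from them. Library eESC_10d C, from epidermal cells, had a median of 3.68 CPM over the stems at least 2-fold higher in gESC_3d than in ISC_medium, against 1.93 to 2.07 CPM in the other 3 eESC_10d libraries. It also had 7.36 CPM of c17071_g1, against 0.904 to 1.10 CPM in those 3. Across stems, its Spearman correlations with the gESC_3d and gESC_10d libraries were 0.784 to 0.804, against 0.693 to 0.725 for those 3. The cause was not tested. Library ISC_high B had 0.0289 CPM of c17071_g1, which is 1 count, and the other 3 ISC_high libraries had 0. With the others at 0, any single count is flagged. No comparison above contrasted eESC_10d, whose libraries entered the fit through scaling, filter and spread.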

How the results depend on the processing

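Depth limits stems at or near the floor of 3 counts. With a mean of at least 5 CPM, where 9196 stems were tested, gESC_3d against ISC_medium gave 6754 calls, 3394 higher (2612 at least 2-fold) and 3360 lower (1843 at least 2-fold), so that 50.3% of calls were higher, against 56.5% in the report. The same filter gave 7041 calls, 3563 of them higher, in gESC_10d against ISC_high, and 163 stems with contigs in opposite directions. Fewer features were tested there, as in the fit of only the groups contrasted, with 194 such stems. The interaction contrast gave 1848 calls, 769 positive and 1079 negative, without a filter. Its positive calls, 1519 in the report beside 1303 negative, were 644 (1453 negative) with only the groups contrasted, 992 (1255) with contigs and 1366 (1595) with DESeq2. Leaving out each library gave 823 (without gESC_10d C) to 1845 (without ISC_medium A) positive calls, with 1009 without gESC_10d B and 997 without ISC_medium C. The cause was not tested.

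Scaling by median of ratios, by total counts only or by the deposited factors, and DESeq2, gave for gESC_3d against ISC_medium 11055, 10939, 11162 and 11036 calls, 8328 of 13142 stems when only those groups were fitted, and 10528 when thinned to the smallest total. With stems of one body column only left out, 5375 stems were at least 2-fold higher and 3419 lower. Same-letter correlations of deviations from the group mean were -0.27, 0.24 and -0.33, and different-letter ones -0.39 to 0.40. Deviations from a mean of 3 libraries are tied together, so these values cannot settle whether letters pair libraries. The replicate block gave 10935 calls. In the alternatives run for them, the named stems kept direction and call.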
